A study of Mus musculus with 15 samples.

Results

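Protamines and transition proteins are the small basic proteins that package sperm DNA, and 7 genes of this programme were followed here: Prm1, Prm2, Prm3, Tnp1, Tnp2, Hmgb4 and Tsga8. They were chosen by gene symbol, and each symbol matched 1 of the 32285 genes listed for every library. The data were single-cell RNA counts of testis cells from DBA/2J mice, with 1 testis of 1 mouse in each of 15 libraries and 3 libraries in each of 5 groups. JQ1 is a small molecule that binds the bromodomains of BET proteins, among them BRDT, the member made in male germ cells, and it reaches the whole animal and the other BET proteins too. Treated mice (T) were given JQ1 at 50 mg/kg by daily intraperitoneal injection for 3 weeks and taken at 10 weeks of age, and recovered mice (R) had the same course followed by 6 weeks without drug and were taken at 16 weeks. Vehicle mice received DMSO in (2-hydroxypropyl)-β-cyclodextrin and were taken at the age of the treated (VC-T, 10 weeks) or the recovered mice (VC-R, 16 weeks), and uninjected mice (UC) were taken at 15 weeks. The 5 groups share the strain and carry no engineered allele.

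As round spermatids turn into sperm, histones leave the DNA and are replaced first by transition proteins and then by protamines, which compact the nucleus. The messenger RNAs of these proteins are made in the later round spermatid, stored without being translated and used days afterwards. Tnp1 and Tnp2 encode the transition proteins, and Prm1 and Prm2 encode the protamines of mouse sperm. Prm3 lies in the same gene cluster but encodes an acidic protein of the cytoplasm, Hmgb4 encodes an HMG-box protein of germ cells, and Tsga8 encodes a nuclear protein of haploid germ cells from the X chromosome.

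On GRCm38, 4 of the genes stand on the minus strand within 17.9 kb of chromosome 16: Tnp2 at chr16:10787936-10788660, Prm3 at chr16:10790505-10790914, Prm2 at chr16:10791380-10796134 and Prm1 at chr16:10796326-10805839. The others are also on the minus strand, Tnp1 at chr1:73015074-73015909, Hmgb4 at chr4:128260212-128260957 inside the plus-strand gene Csmd2, and Tsga8 at chrX:83486678-83487924 inside the plus-strand gene Dmd. Prm1 overlaps the annotated antisense gene Gm46563 and Tnp1 overlaps 1700027A15Rik. Sequences before the start sites are shown for 5 of the genes, so that Prm2 and Tnp2, with large differences between UC and T below, can be read beside Prm3 and Tsga8, with the smallest. The windows of Prm1 and Hmgb4 overlap annotated exons by 63 and 62 bases, and only their matches are given. Those of Tnp1 and Tnp2 overlap exons by 10 and 5 bases and are shown. CREM, the activator of many spermatid genes, binds elements of the form TGANNTCA. That form, which reads the same on both strands, and the letters TATA, which also read the same on both strands, were looked for in the 120 bases upstream of each RefSeq start. Each line runs 5′ to 3′ along the minus strand of GRCm38.p6, and capitals mark a match (where matches of TATA overlap, they run together).
Prm2 (chr16:10792106-10792225): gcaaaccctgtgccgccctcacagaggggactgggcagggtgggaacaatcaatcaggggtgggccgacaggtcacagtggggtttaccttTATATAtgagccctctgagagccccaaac
Prm3 (chr16:10790915-10791034): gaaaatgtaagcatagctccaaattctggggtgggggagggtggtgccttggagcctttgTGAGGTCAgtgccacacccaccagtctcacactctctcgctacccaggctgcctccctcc
Tnp1 (chr1:73015900-73016019): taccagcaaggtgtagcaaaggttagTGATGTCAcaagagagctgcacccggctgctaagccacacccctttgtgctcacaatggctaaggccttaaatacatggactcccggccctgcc
Tnp2 (chr16:10788656-10788775): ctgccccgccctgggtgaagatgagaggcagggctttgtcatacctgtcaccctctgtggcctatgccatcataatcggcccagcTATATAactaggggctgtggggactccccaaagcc
Tsga8 (chrX:83487925-83488044): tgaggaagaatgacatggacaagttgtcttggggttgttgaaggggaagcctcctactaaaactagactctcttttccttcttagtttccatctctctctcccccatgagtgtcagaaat
TGANNTCA stood in 4 of the 7 windows, those of Prm1, Prm3, Tnp1 and Hmgb4, and in 7.14% of 32851 promoter windows of the same length. The letters TATA stood in 3, those of Prm1, Prm2 and Tnp2, and in 17.7% of all windows. The Tsga8 window held neither. The narrower form TGACGTCA stood in 0 of the 7 windows and in 1.24% of all windows. These are matches of letters, not measured binding.

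After filters on genes, UMIs (unique molecular identifiers, 1 per captured RNA molecule), mitochondrial share and doublet score, 72362 cells were kept. The libraries held between 9673587 and 98724982 UMIs. Cells were clustered without the 7 genes and named by marker genes as spermatogonia-like, spermatocyte-like, spermatid-like (the round spermatid range), spermatozoa-like (later cells) or a somatic type, and 4822 cells, 3355 of them from R, stayed unnamed. The 7 genes took 18.7% ± 2.54 of the UMIs of the unnamed cells in R, 13.6% ± 3.17 in UC and 1.36% ± 0.546 in T (SD, n = 3 each), and these cells entered no class comparison. The 3 T libraries together held 4586 spermatid-like cells but 11 spermatozoa-like cells, against 1979 and 5864 in UC. Of the 3 vehicle libraries taken with T, replicate 1 stood apart: it held 1 spermatozoa-like cell, and its germ cells ended about where those of T ended, although its label is vehicle. Results that use VC-T are given with and without it. Any 2 libraries shared at most 46 cell barcodes.

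The 7 genes together took 10.2% to 11.6% of the UMIs of kept cells in the UC libraries and 0.115% to 0.248% in the T libraries. They took 10.4% and 11.6% in VC-T replicates 2 and 3 and 0.178% in VC-T replicate 1. In the recovered mice they took 10.7% to 12.0%, and in VC-R 9.76% to 11.9%. T and VC-T replicate 1 therefore lay far below the other 11 libraries, which overlapped. Levels below are summed within 1 class of cells and given as CPM (counts-per-million, here UMIs scaled to the total of that class in that library), a unit that counts molecules by their 3′ ends and was not divided by transcript length.

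Among the protamines, Prm1 measured 6878, 7708 and 6343 CPM in the spermatid-like cells of UC and 462.4, 105.0 and 171.7 in those of T. Prm2 measured 6796, 8510 and 7397 in UC and 412.5, 109.5 and 174.5 in T. Both protamine genes were low in every T library, with no overlap between the groups. The fitted difference for Prm1 was a log2 fold change of -4.99 (SE 0.38), a level 31.9-fold lower in T (edgeR quasi-likelihood test, adjusted p = 8.2e-08). For Prm2 it was -5.20 (SE 0.35), 36.8-fold lower (edgeR adjusted p = 2.4e-08). Prm3, the cytoplasmic neighbour of the cluster, measured 1188, 1220 and 1007 in UC and 958.9, 688.3 and 691.0 in T. Its T libraries were also all below UC, but by far less, a log2 fold change of -0.75 (SE 0.12, edgeR adjusted p = 9.2e-05).

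Of the transition protein genes, Tnp1 measured 3982, 4568 and 3821 CPM in UC and 846.1, 450.7 and 459.6 in T, a log2 fold change of -3.01 (SE 0.19, 8.07-fold lower, edgeR adjusted p = 1.5e-08). Tnp2 measured 5755, 7279 and 5859 in UC and 562.6, 240.6 and 270.9 in T, a log2 fold change of -4.32 (SE 0.25, edgeR adjusted p = 9.1e-09). The groups did not overlap for either gene. The ratio of Tnp1 to Tnp2 was 0.657 ± 0.0325 in UC and 1.69 ± 0.185 in T (SD, n = 3 each), without overlap. It differed likewise in spermatogonia-like cells, at 0.900 ± 0.0329 in UC and 1.70 ± 0.0692 in T, so the difference was not particular to spermatid-like cells.

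Hmgb4 measured 1373, 1451 and 1116 in UC and 585.1, 441.3 and 419.1 in T, and its log2 fold change was -1.65 (SE 0.12, 3.13-fold lower, edgeR adjusted p = 6.8e-08). Tsga8 measured 1059, 1098 and 976.0 in UC and 863.1, 886.8 and 869.5 in T. This X-linked gene thus stayed within a narrow range in both groups, which still did not overlap, with a log2 fold change of -0.46 (SE 0.07, edgeR adjusted p = 4.2e-05). A gene was called where its adjusted p, corrected over all genes tested, was under 0.05 and its log2 fold change was past 1 in either direction. By that rule 5 of the 7 genes were called, all lower in T, and 14.4% of the 12927 genes tested were called, 1508 lower and 348 higher. Prm3 and Tsga8 passed the p threshold but not the fold, and 5954 of the 12927 genes passed that p threshold. In bulk sums over a class, fewer cells with the RNA and less RNA per cell cannot be told apart.

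The order of the levels was turned over between the groups. In UC spermatid-like cells it ran Prm2 (7568 ± 869.4 CPM, SD, n = 3), Prm1 (6976 ± 687.7), Tnp2 (6297 ± 851.5), Tnp1 (4124 ± 393.2), Hmgb4 (1313 ± 175.6), Prm3 (1138 ± 115.0) and Tsga8 (1044 ± 62.5), and neighbours overlapped within the group of the first 3 and within that of the last 3. In T it ran Tsga8 (873.1 ± 12.3), Prm3 (779.4 ± 155.4), Tnp1 (585.5 ± 225.8), Hmgb4 (481.8 ± 90.1), Tnp2 (358.0 ± 177.8), Prm1 (246.4 ± 190.0) and Prm2 (232.2 ± 159.5), and each neighbouring pair overlapped between libraries.

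**Figure D1:**
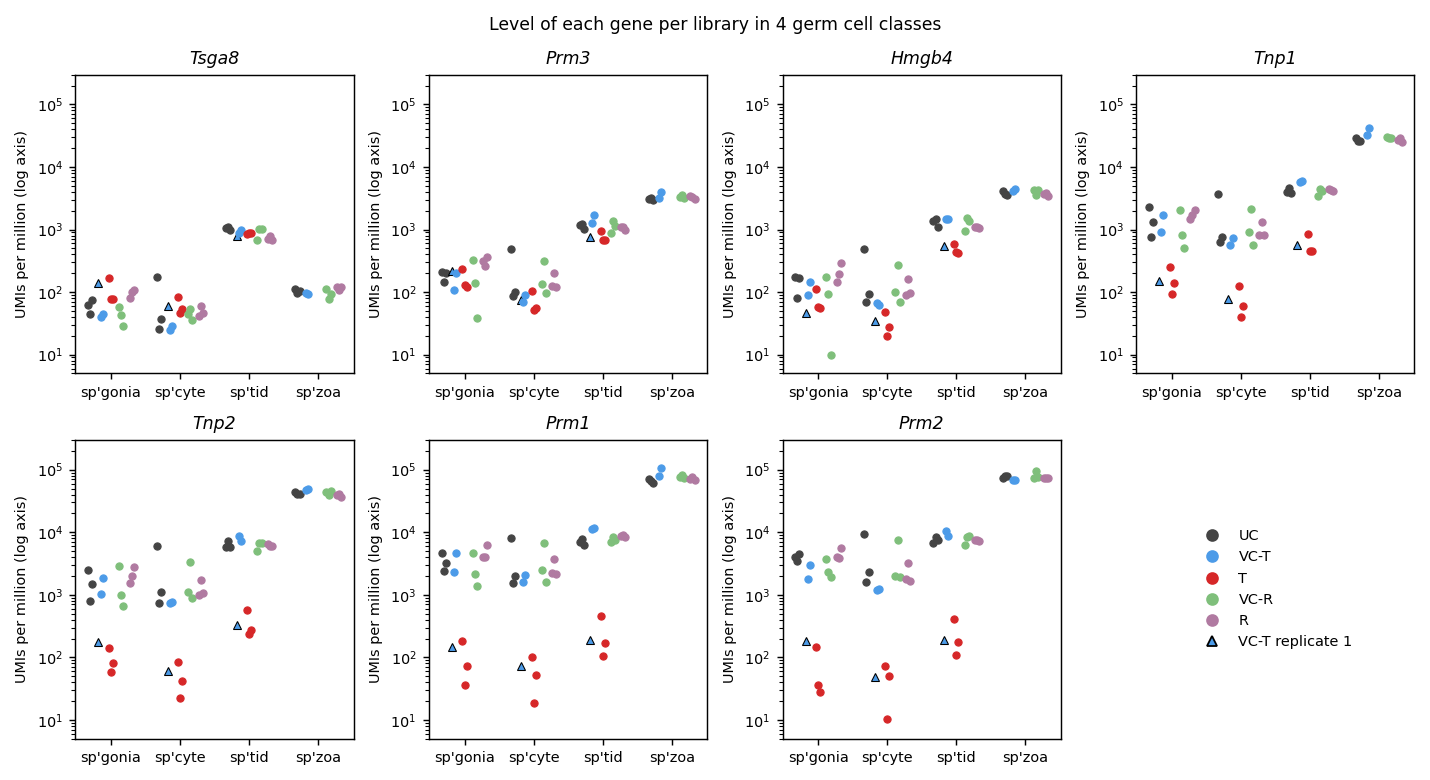
Level of each of the 7 genes (CPM of the class, log axis) in the 4 germ cell classes, with 1 point per library that had at least 10 cells of the class and a triangle for VC-T replicate 1. In spermatid-like cells the Prm1 points of T lie between 105.0 and 462.4 and those of UC between 6343 and 7708, while the Tsga8 points of all groups lie close together.

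Detection per cell was also lower in T. With every cell thinned to 1000 UMIs, so that depth was equal, Prm1 was detected in 86.6% of UC and 12.8% of T spermatid-like cells (means of 3 libraries), and without thinning in 99.5% and 27.9%. Tnp1 was detected in 76.1% and 33.8% of thinned cells, Tnp2 in 75.5% and 19.6%, and Hmgb4 in 54.2% and 29.9%. Tsga8 was detected in 59.2% of UC and 54.9% of T cells, the closest pair of the 7. These shares include RNA free in the suspension: spermatogonia-like cells, the earliest germ cells, had Prm1 in 87.3% of thinned UC cells and 9.61% of thinned T cells. The Prm1 share of UC spermatid-like cells is therefore no higher than in spermatogonia-like cells, and that of T lies little above its spermatogonia-like share. Thinned spermatocyte-like cells of UC, also early, had Prm1 in 81.4%, 65.6% and 71.0%. In spermatid-like cells of the same libraries it was 90.5%, 83.3% and 86.1%. Whether the UC share is at background thus depends on the class taken as background. For Tsga8 the spermatogonia-like share was 6.73% in UC and 10.0% in T, far below the spermatid-like shares. Cells with at least 20 UMIs of Prm1 made up 70.2%, 67.9% and 60.5% of the germ cells in the UC libraries, 2089 of 2976, 1898 of 2797 and 2391 of 3950. In the T libraries there were 39 of 5403, 3 of 3755 and 11 of 2363 such cells, and in VC-T replicate 1 there were 6 of 5473.

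Against the vehicle mice of the same age, VC-T replicates 2 and 3, the spermatid-like cells of T were again low. Prm1 measured 11477 and 11831 CPM there, and 190.1 in replicate 1, so that replicate 1 lay inside the range of T and the other VC-T libraries lay above UC. Prm2 measured 192.9, 10511 and 8587 in VC-T replicates 1, 2 and 3, Tnp1 555.6, 5779 and 6066, and Tnp2 326.3, 8699 and 7161. With replicates 2 and 3, 6 of the 7 genes were called, all lower in T, where 16.6% of 14521 genes were called. The log2 fold changes were -5.74 for Prm1, -5.54 for Prm2, -4.65 for Tnp2, -3.53 for Tnp1, -1.81 for Hmgb4 and -1.12 for Prm3. Tsga8 was the gene not called, with -0.28 (SE 0.11, edgeR adjusted p = 0.0635). With all 3 VC-T libraries in the fit no gene was called, and 3571 genes had an unadjusted p under 0.05.

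**Figure D2:**
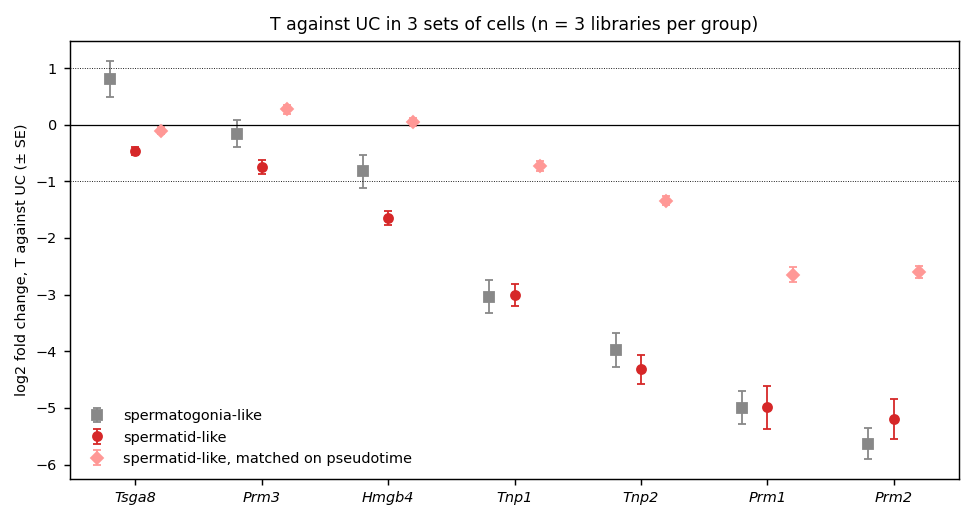
Log2 fold change of each gene in T against UC, with the standard error as bars, in spermatogonia-like cells, in spermatid-like cells and in spermatid-like cells matched on pseudotime. Prm1 and Prm2 lie near -5 in the first 2 and near -2.6 in the matched cells, and Tsga8 lies within 1 unit of 0 in all 3.

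The spermatid-like cells of T sat earlier along maturation than those of UC, so cells were also compared at the same stage. Germ cells were ordered by a pseudotime computed without the 7 genes and divided into 51 bins, numbered 0 to 50. The last bin with at least 10 cells was 27 to 29 in the T libraries and 28 in VC-T replicate 1, and it was 50 in the other 11. From bins 13 to 29, 313 spermatid-like cells per library were drawn so that each library had the same number in each bin.

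Prm1 then measured 2215, 1444 and 1832 CPM in UC and 430.1, 198.8 and 271.7 in T (log2 fold change -2.65, SE 0.13, edgeR adjusted p = 1.8e-19). Prm2 measured 1824, 1407 and 2107 in UC and 377.0, 235.9 and 299.6 in T (-2.60, SE 0.10, edgeR adjusted p = 1.1e-22). Tnp2 measured 1393, 1008 and 1315 in UC and 582.5, 453.2 and 487.4 in T (-1.34, SE 0.08, edgeR adjusted p = 8.7e-16). These 3 of the 7 genes were called lower, without overlap between groups, where 1.72% of 9347 genes were called. Tnp1 measured 1395, 1115 and 1233 in UC and 960.9, 701.9 and 668.8 in T, a smaller difference of -0.73 (SE 0.08, edgeR adjusted p = 4.8e-08). Prm3 went the other way, with 825.7, 860.2 and 721.2 in UC and 1183, 927.0 and 899.8 in T (0.27, SE 0.08, edgeR adjusted p = 0.0186). Hmgb4, at 587.7 to 684.5 in UC and 631.8 to 741.2 in T, and Tsga8, at 920.5 to 1041 and 910.6 to 975.1, overlapped between groups, with differences of 0.04 (edgeR adjusted p = 0.793) and -0.11 (edgeR adjusted p = 0.278).

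The level of free RNA moved with this comparison. The spermatogonia-like cells of UC held Prm1 at 4686, 2389 and 3252 CPM, in each library above the 1444 to 2215 of its matched spermatid-like cells, and those of T held it at 183.0, 36.3 and 74.0. When the level in each library's own spermatogonia-like cells was subtracted per UMI, the matched differences of Prm1, Prm2, Tnp1 and Tnp2 turned positive, with UC sums at or near 0. With subtraction per cell instead, Prm1 and Tnp1 were positive but far smaller, Prm2 stayed strongly positive, and Tnp2 was not among the genes that turned. The direction of Prm1, Prm2 and Tnp1 in stage-matched cells therefore depended on subtraction, and that of Tnp2 on how it was done. In unmatched spermatid-like cells the subtraction left 5 of 7 genes called lower.

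Along pseudotime, in the 11 libraries with later cells, Tsga8 rose first and Prm2 last or beside the last, and the order between them was less fixed. The bin at which a gene first reached 50% of its highest bin was 17 for Tsga8 (median of 11 libraries, range 15 to 18), 29 for Hmgb4 (28 to 30), 30 for Prm3 (29 to 31) and Tnp2 (30 to 31), 31 for Prm1 (30 to 31) and Tnp1 (30 to 31), and 32 for Prm2 (31 to 32). Tsga8 came first in 11 of 11 libraries and Hmgb4 came before Prm1 in 11 of 11. Prm1 came before Prm2 in 7 and in the same bin in 4. Neighbours from Hmgb4 to Prm2 had overlapping ranges, and the libraries split on some pairs: Hmgb4 came before Prm3 in 8, in the same bin in 1 and after it in 2. At 10% of the highest bin the median was 19 for Prm3 and 21 for Hmgb4, the reverse order. The highest bins were 28 for Tsga8, 36 for Tnp2 and Hmgb4, 38 for Tnp1, 47 for Prm1, 49 for Prm3 and 50 for Prm2.

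Tsga8 rose first, and fell while the protamines were climbing to their plateau. Its mean level in UC was 428.9 CPM in bin 14, 976.0 in bin 20, 1252 in bin 26 and 1145 in bin 29, and then 288.5 in bin 31, 127.9 in bin 32 and 82.2 in bin 36. Prm1 went from 2015 in bin 24 to 10289 in bin 27 and 66243 in bin 36, and stood at 70534 in bin 50. Within these bins the transition protein genes passed their maximum while the protamines held theirs. Tnp1 fell from 30285 in bin 36 to 20987 in bin 50, and Tnp2 from 47300 in bin 32 to 27152 in bin 50. Some clusters of later cells, given below, held far less Prm1 than others, a difference that the bins did not show.

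In T and VC-T replicate 1, where Prm1 was low before the spermatids, the first rise of each gene could be placed against its own early level. The Prm1 level of bins 4 to 12 was 16.2 to 90.3 in the T libraries, 923.0 to 1062 in UC and 1355 to 1778 in R. A gene was taken as risen at the first of 2 bins in a row with more than 3 times that early level. In T this was bin 14 for Tsga8, 15 for Prm3, 16 for Hmgb4, 17 for Tnp1, 21 for Tnp2, 24 for Prm2 and 25 for Prm1 (medians of 3 libraries). VC-T replicate 1 gave 14, 15, 16, 17, 20, 23 and 24 for the same genes in the same order. In UC the bins were 13, 16, 18, 23, 25, 26 and 26, so that Tnp1 was placed 6 bins later than in T and Tsga8 1 bin earlier. The early level of Tnp1 was 402.4 to 423.8 CPM in UC and far lower in every T library. A rise of Tnp1 therefore had to reach a higher level in UC than in T to be counted. Whether Tnp1 rose at a different stage in T, apart from this early level, was not tested. In R, where the early Prm1 level was above that of UC, the bins were 14, 18, 19, 20, 20, 20 and 20. By this measure Tnp1, Tnp2, Prm2 and Prm1 came out together and earlier than in UC. The rise of Prm1 in R was not steady, with means of 7191 CPM in bin 21, 4893 in bin 24 and 9799 in bin 27. Spermatogonia-like cells of R held Prm1 at 4042, 4022 and 6214, near its level in bins 21 and 24. These early bins of R therefore do not place the onset apart from free RNA. The early level of Tsga8 was 46.4 to 71.9 in T and 21.3 to 27.0 in UC, the reverse of Prm1. By the medians of this measure Prm3 rose before Hmgb4, Tnp1 before Tnp2 and Prm2 before Prm1 in T, whereas the 50% measure in the 11 libraries placed the first and the last of these pairs the other way round and Tnp1 with or after Tnp2.

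Single cells of T and VC-T replicate 1 carried the earlier genes without the later ones. Counting cells with at least 3 UMIs of one gene and none of the other, 1953 had Tsga8 without Prm1 and 48 had Prm1 without Tsga8. Tnp1 without Prm1 was seen in 859 cells and the reverse in 15, and Tnp1 without Tnp2 in 472 against 29. The pair Prm3 and Prm1 stood at 1474 against 30, and Tnp2 and Prm1 at 242 against 23.

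In the last bins that T reached, its protamine RNA was rising. Prm1 averaged 52.9 CPM in bin 20, 123.9 in bin 24, 959.1 in bin 26 and 2336 in bin 27 in T, against 1671, 2015, 3629 and 10289 in UC. VC-T replicate 1, which had no JQ1 by its label, measured 96.0, 218.9, 861.7 and 2490 in these bins, close to T. T replicate 1, the T library that reached further, measured 5156 in bin 28 and 9967 in bin 29, where UC averaged 11632 and 14264. In bin 26 the T libraries spanned 542.4 to 1273 and the UC libraries 1691 to 5635, without overlap. The UC libraries spread widely after that, from 3417 to 22022 in bin 27 and from 5946 to 20988 in bin 28. In bin 27 the T libraries spanned 1582 to 2856, close below the lowest UC library. The free RNA given above is included in these values. Hmgb4 averaged 1699 in T and 1625 in UC in bin 26, and Prm3 1872 and 1537.

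**Figure D3:**
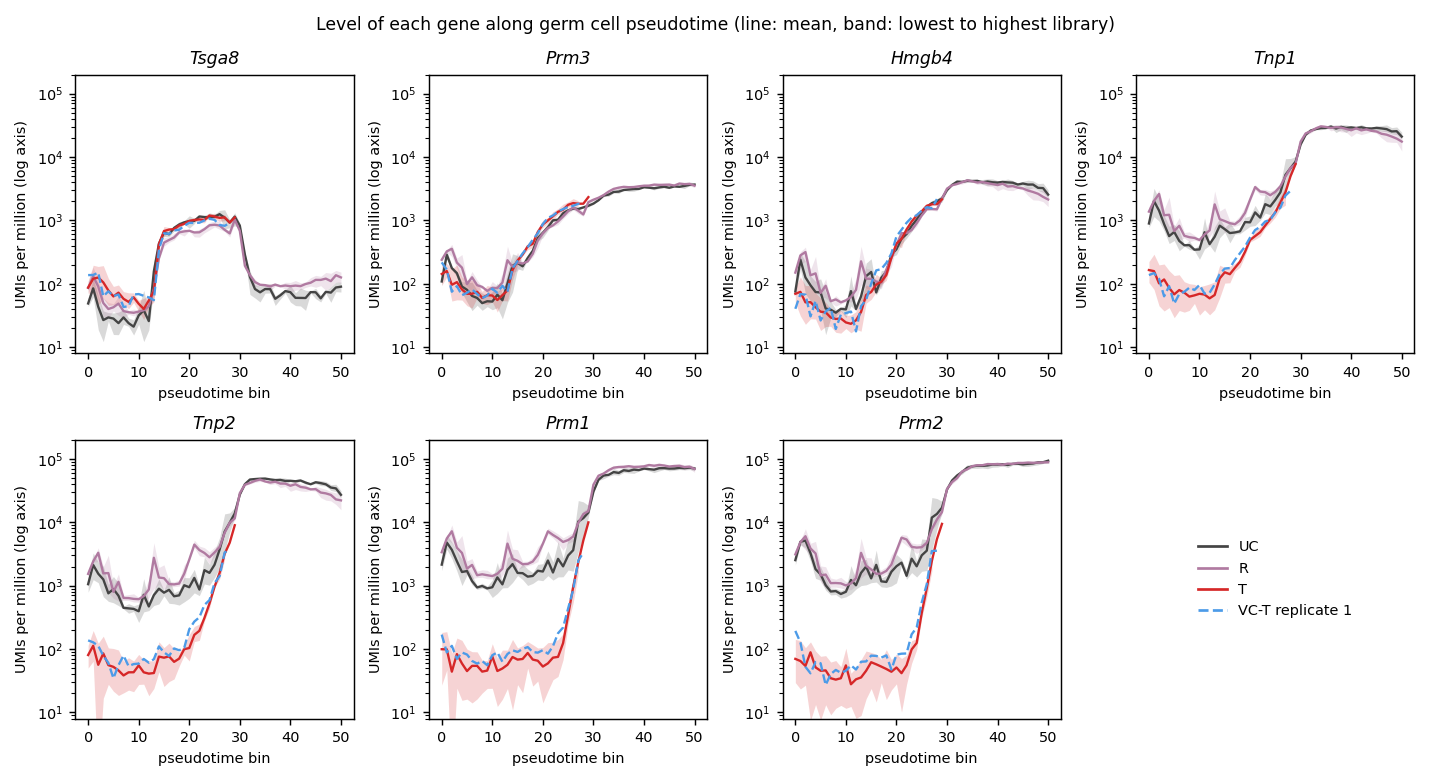
Level of each gene (CPM of the bin, log axis) along the 51 pseudotime bins in UC, R and T, drawn as the mean line and the range from the lowest to the highest library, with VC-T replicate 1 as its own line. The T and VC-T replicate 1 lines end between bins 27 and 29, and before bin 20 the Prm1 lines of UC and R vary from bin to bin but run far above that of T.

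In the clusters of later cells the 7 RNAs stood at widely different levels. In the UC means, the earlier spermatid-like cluster 6 held all 7 at similar levels, from 1235 (Tsga8) to 2135 CPM (Prm1), and the next, cluster 18, held Prm1 at 18224, Prm2 at 20326 and Tnp2 at 17349. In the spermatozoa-like clusters Prm1 rose to 85080 in cluster 0 and Tnp1 to 38534, while Tsga8 fell to 64.1. Cluster 3 held Prm2 at 108813 but Tnp1 at 6374 and Tnp2 at 7468. Whether clusters 3 and 10 follow cluster 0 in time was not tested. In cluster 10 Prm2 was the most abundant of the 7 by far: it was at 158909 (154921 to 163680 over the UC libraries) while Prm1 was at 12173 (11547 to 12518), Tnp1 at 1008 and Hmgb4 at 220.4. The same pattern stood in R, with Prm2 at 142880 and Prm1 at 12891 in this cluster, and in VC-R, with 167045 and 14484. T had 1 cell in cluster 10. Its cells of cluster 6 held Prm1 at 304.7 and Prm2 at 293.8 but Tnp1 at 1100, Hmgb4 at 1098 and Prm3 at 1467. Free RNA bears on this contrast. Spermatogonia-like cells of UC held Prm1 at 4686, 2389 and 3252 and Prm2 at 4017, 3420 and 4543, above every mean of UC cluster 6. Bins 4 to 12 of UC, mostly spermatocyte-like cells, held less, with library medians of 923.0 to 1062 for Prm1 and 797.2 to 915.3 for Prm2. Whether the UC levels of Prm1 and Prm2 in cluster 6 are at background thus depends on the early cells compared. In cluster 18, where only T replicate 1 had enough cells, 24 of them, Prm1 was at 9318 and Tnp1 at 7438.

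**Figure D4:**
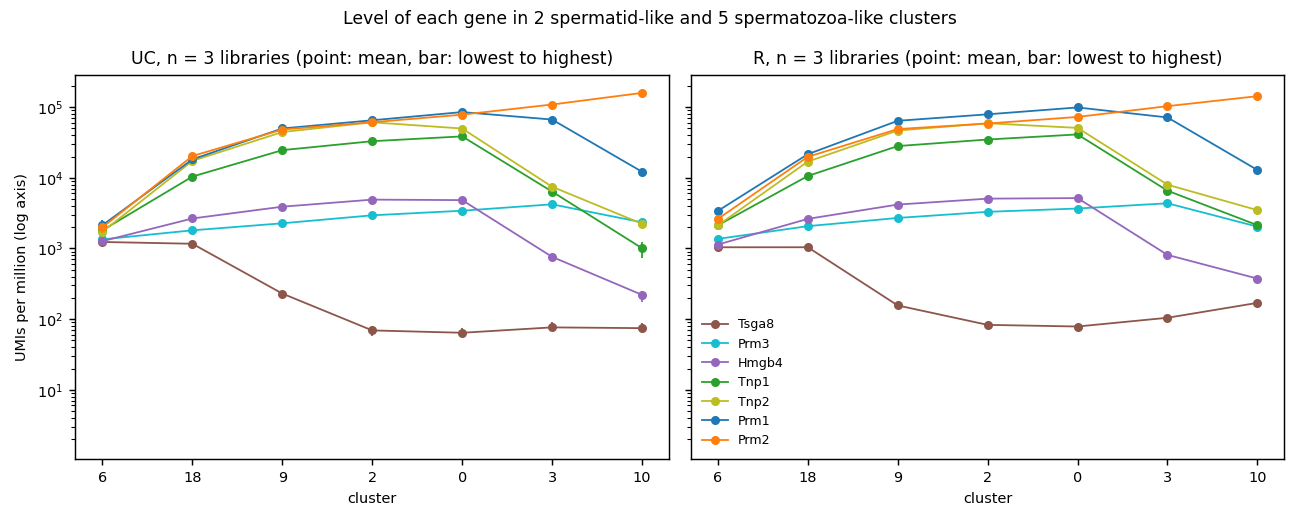
Level of each gene (CPM of the cluster, log axis) in the spermatid-like clusters 6 and 18 and the spermatozoa-like clusters 9, 2, 0, 3 and 10, in that order, for the UC and R libraries. Prm2 is at its highest level in cluster 10 (UC mean 158909), where Prm1 (12173) and the transition protein genes are lower. The order in which the clusters are drawn was not tested as an order in time.

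Recovery was asked next: whether 6 weeks after the last dose the levels differed from those of control mice. T and R were each set against the same 3 UC libraries. In spermatozoa-like cells, Prm1 measured 72226, 76641 and 67357 CPM in R and 69864, 65105 and 60816 in UC, and Prm2 measured 73259, 74113 and 74760 in R and 72305, 78541 and 79637 in UC. Both pairs overlapped. Tnp1 ran from 24798 to 28562 in R and from 25998 to 29351 in UC, and Tnp2 from 37163 to 40612 and from 41145 to 43821, the latter without overlap. None of the 7 genes was called, with log2 fold changes from -0.14 (Tnp2) to 0.13 (Tsga8), where 0.915% of 12790 genes were called. Against VC-R the 7 log2 fold changes in spermatozoa-like cells ran from -0.30 (Prm2) to 0.19 (Tsga8), and 0 of 7 genes were called, with 0% of 12752 genes called (edgeR; DESeq2 also called none, and 1748 genes had an unadjusted p under 0.05).

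In spermatid-like cells of R, Prm1 measured 8760, 8934 and 8476, above the 6343 to 7708 of UC but with a log2 fold change of 0.09 once the fit had scaled the libraries (TMM, edgeR adjusted p = 0.398). Tsga8 was the gene furthest from UC, with 707.1, 782.1 and 679.6 in R and 976.0 to 1098 in UC, a log2 fold change of -0.76 (SE 0.08, edgeR adjusted p = 3.6e-08). The R libraries lay below every UC library for Tsga8 and also for Hmgb4 (1057 to 1100 against 1116 to 1451), whose difference was -0.51 (edgeR adjusted p = 2.8e-05). Prm3 differed by -0.34 (edgeR adjusted p = 0.0021). Here too 0 of the 7 genes passed the fold threshold, where 7.71% of 14674 genes were called, 1108 higher and 23 lower. Of all genes tested, 6321 had an edgeR adjusted p under 0.05. Clusters 8 and 13, which hold few UMIs per cell, made up 2723 and 2168 of the 6811 spermatid-like cells of R, and without them the differences of Tsga8, Hmgb4 and Prm3 were -0.48, -0.39 and -0.20. Against VC-R, 0 of 7 genes were called, where 2.76% of 14879 genes were called, with log2 fold changes from -0.59 (Tsga8, edgeR adjusted p = 0.0782) to -0.05.

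The spermatogonia-like and spermatocyte-like cells come before the stage at which these genes are known to be switched on. Spermatogonia-like cells of UC held Tnp1 at 2286, 748.0 and 1297 CPM, and those of T at 249.4, 94.4 and 141.0. The Prm1 level there was 10.8% of that of the whole library in UC (6.99% to 14.0%) and 49.4% in T (29.9% to 59.8%). Of the UMIs of the 7 RNAs in UC spermatogonia-like cells, 31.4% came from Prm1, 38.2% from Prm2 and 12.6% from Tnp1. These shares were near those of all kept cells (29.5%, 34.6% and 12.6%). Tnp2 was relatively lower: the ratio of Tnp1 to Tnp2 was 0.900 ± 0.0329 there and 0.646 ± 0.0193 in all kept cells (SD, n = 3 each). In the fit, Prm1 (log2 fold change -5.00, edgeR adjusted p = 7.8e-12), Prm2 (-5.63), Tnp1 (-3.04) and Tnp2 (-3.97) were called lower in T, 4 of 7 genes, where 1.14% of 6870 genes were called. Tsga8 measured 165.2, 77.4 and 77.5 in T and 61.8, 44.5 and 75.8 in UC (0.81, SE 0.32, edgeR adjusted p = 0.288).

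In spermatocyte-like cells Prm1 (-6.27, SE 1.00, edgeR adjusted p = 0.049) and Prm2 (-6.84, SE 1.08, edgeR adjusted p = 0.0469) were called lower in T, 2 of 7 genes, where 0.685% of 12417 genes were called. Replicates of the same number deviated together in this comparison alone, and with the replicate number as a block 6 of 7 genes were called. The values leaned on UC replicate 1, of whose 646 spermatocyte-like cells 248 (38.4%) belonged to cluster 21, against 11.0% in UC replicate 3: the 7 genes together stood at 28404 CPM in UC replicate 1, and at 3147 without that cluster. Without UC replicate 1, 5 of the 7 genes were called, without any other single library 0 were, and without cluster 21, 4 were, with Prm1 at -4.28 and Prm2 at -4.47.

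Other genes of histone exchange and of its control were taken from a list of 32, of which 29 were tested in spermatid-like cells of T and UC. Of these, 3 were called lower, 1 was called higher and 25 were not called, and the list's median log2 fold change was -0.02, against 0.04 over all genes tested. Lower in T were Fhl5, a partner of the activator CREM (206.5 to 229.4 in T and 477.1 to 567.4 CPM in UC, log2 fold change -1.45), H2al2a, a histone variant of late spermatids (43.3 to 87.9 and 309.7 to 380.9, -2.60), and H1fnt, a linker histone of spermatids (133.2 to 222.5 and 432.2 to 540.5, -1.71). Higher was Hist1h1t, the testis linker histone of the earlier spermatocyte (16.0 to 21.5 and 4.31 to 9.36, 1.08). Their edgeR adjusted p-values were 9.1e-09, 2.8e-08, 4.2e-07 and 0.00131. The drug's target in germ cells, Brdt, differed by 0.15 (edgeR adjusted p = 0.144) and Crem by -0.12 (edgeR adjusted p = 0.206). The shares called, 10.3% lower and 3.45% higher, lay near those of all genes, 11.7% and 2.69%. In cells matched on pseudotime, 0 of 27 tested genes of the list were called by edgeR, of which Ybx3, which binds stored protamine RNA, had -0.20 (edgeR adjusted p = 0.0206).

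The genes most like each member were found by Pearson's correlation over the 51 bins of the pooled control libraries, a description in which all bins share libraries and depth. Prm1 was most like Ttc24 and 1700042G07Rik (0.999 each), Prm2 like 1700042G07Rik, 1700027A15Rik and 1700012A03Rik (0.998), and both transition protein genes like Tex37 (0.997 each). The next most like Tnp1 was H2al2a, at 0.996. Prm3 was most like Pkib (0.998), Hmgb4 like Actrt2 (0.998) and Tsga8 like Spaca3 and Spata45 (0.995 each), Spaca3 being an acrosomal protein. Among the members, Prm1 and Prm2 reached 0.999, Tnp1 and Tnp2 0.997, Prm3 and Hmgb4 0.990, and Prm1 and Tsga8 -0.244.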

How the data were processed

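The values were UMI counts per gene and cell, deposited by the authors as filtered 10x 3′ matrices, 1 per library and not normalized. The submitters' processing notes name Cell Ranger 3.0.0, whereas the file headers name 7.0.0, and whether intron reads were counted is not given in the sources used here; the build was mm10. Intron counting would affect levels of spliced genes. The study's removal of free RNA and doublets is not in the deposited counts.

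Barcodes entered if they showed 500 genes or more, 1000 UMIs or more and less than 30% mitochondrial UMIs; the top 5.4% of doublet scores per library were left out. Clustering (scanpy 1.11.5, leidenalg 0.10.2) used 2000 variable genes without the 7 members, 30 components, 20 neighbours and resolution 1.2. Counts were summed per library and class with at least 10 cells and tested with edgeR 4.0.16 (R 4.3.3; quasi-likelihood, TMM, filterByExpr, Benjamini-Hochberg adjustment over all genes) within the 2 groups compared, after a check on simulated data. VC-T replicate 1 was left out of the main fit, as in the study. DESeq2 1.42.0 was an alternative, with size factors, filters, doublets, depth, subtraction of free RNA, left-out replicates and a replicate block. Same-numbered replicates deviated together (every correlation over 0.1, from 0.16 to 0.68) only in the spermatocyte-like comparison of T and UC; whether the numbers mark a shared day is not stated. Replicates were separate mice. Free RNA was read from spermatogonia-like cells.

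The named genes were the 7 members, the called genes of the histone-exchange list and the 3 genes most like each member. The members and lists were chosen with earlier results of these data known. UMI totals set the precision; intervals over libraries are SDs.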

Additional observations from a re-analysis of the deposited data

Results flagged for a closer look

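Prm3 went in opposite directions with and without matching on stage. In all spermatid-like cells every T library lay below every UC library (log2 fold change -0.75), and in the cells matched on pseudotime every T library lay above every UC library (0.27). The difference between the comparisons was not tested, and they share libraries.

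Tsga8 was higher in every T library than in every UC library in spermatogonia-like cells (0.81, not past the adjusted threshold) and lower in every T library in spermatid-like cells (-0.46). That difference was not tested either.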

How the results depend on the processing

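Of 134 alternatives for the number of members called, 116 stayed within 1.5 times the reported count, and of 930 for single members' log2 fold changes, 866 kept direction and side of the threshold. The 5 of 7 calls in spermatid-like cells of T against UC stood under every alternative run. In spermatocyte-like cells of T against UC, 4 members were called with no filter on low counts, 5 with DESeq2, 6 with the replicate block, 4 with doublets kept, 4 without cluster 21, 0 with subtraction of free RNA per UMI and 1 per cell, and 0 to 5 with 1 replicate left out. All genes called there numbered 85, against 327 with no filter, 383 with DESeq2, 466 with the block, 262 with doublets kept and 471 without cluster 21. The block changed no other count of members called. T against VC-T went from 6 to 0 with all 3 VC-T replicates. Subtraction per cell called 1 member in spermatid-like cells of R against UC, and subtraction per UMI called 1 in spermatozoa-like cells. In matched cells subtraction called 4 (per UMI) and 1 (per cell), all higher. DESeq2 called 67 genes there against 161. In spermatid-like cells of R against UC, the 1131 genes called became 221 without the low-UMI clusters and 632 in cells of at least 2000 UMIs. Against VC-R the 411 became 878 with no filter, 129 with the block, 0 in cells of at least 2000 UMIs and 0 to 1753 with 1 replicate left out. In spermatogonia-like cells the 78 became 170 with no filter, 43 with DESeq2, 11 in cells of at least 2000 UMIs and 259 with doublets kept. In spermatozoa-like cells of R, the 117 against UC became 39 with DESeq2, and the 0 against VC-R became 13 with no filter, 5 with the block and up to 141 with 1 replicate left out.

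Directions that changed were these. In spermatocyte-like cells, Prm3 was 0.21 and Tsga8 0.97 without cluster 21, and Tsga8 ran from -0.97 to 0.86 with 1 replicate left out. In spermatogonia-like cells Prm3 ran from -0.60 to 0.02, and was 0.08 in cells of at least 2000 UMIs. In spermatid-like cells of R against UC, Prm1 ran from -0.01 to 0.18, and was -0.06 with subtraction per UMI and -0.90 per cell; against VC-R it ran from -0.14 to 0.05. In spermatozoa-like cells of R against UC, Prm3 ran from -0.02 to 0.08, with -0.03 after subtraction per UMI and -0.01 with doublets kept, Tnp1 ran from -0.11 to 0.01, and Tsga8 was -1.21 after subtraction, and -1.48 against VC-R. In matched cells the values after subtraction per UMI and per cell were 11.21 and 0.14 for Prm1, 11.40 and 11.65 for Prm2, 2.21 and 0.30 for Tnp1, and 2.45 per UMI for Tnp2, fitted against UC sums at or near 0 and so no bounds; Hmgb4 ran from -0.03 to 0.10. The cause of these changes was not tested. Matched cells were not run with doublets kept.

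The onset bins of Prm1, Prm2, Prm3, Tnp1, Tnp2, Hmgb4 and Tsga8 were 28, 28, 19, 27, 27, 21 and 14 at 10% of the highest bin, 26, 26, 16, 22, 25, 18 and 14 by the early level, and 0, 0, 20, 14, 13, 22 and 15 by thinned shares, where the first values sit on free RNA. Without thinning, shares of spermatid-like cells in UC and T were 99.5% and 27.9% for Prm1, 99.2% and 24.0% for Prm2, 83.2% and 72.0% for Prm3, 96.1% and 60.3% for Tnp1, 97.5% and 38.5% for Tnp2, 76.7% and 51.9% for Hmgb4, and 87.2% and 84.4% for Tsga8. The order in single cells held for 17 of 21 pairs in T and VC-T replicate 1 and for 2 of 21 in the other 11 libraries.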

Other observations

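The few Sertoli-like cells of T held more of the 7 RNAs than its spermatids. The 7 genes together stood at 28151 and 26731 CPM (UMIs scaled to the total of the class) in the Sertoli-like cells of T replicates 1 and 3 (53 and 39 cells), where Prm1 alone stood at 7933 and 9371, against 462.4 and 171.7 in their spermatid-like cells. In T replicate 2, with 6 cells, they stood at 11801, and in VC-T replicate 1, with 7 cells, at 485.3. In UC the Sertoli-like values were 119507, 82545 and 57341. The mix of the 7 RNAs was not that of the spermatogonia-like cells: Prm1 and Prm2 made up 29.6% and 33.4% of the 7 genes' UMIs in Sertoli-like cells of T and 11.7% and 8.09% in its spermatogonia-like cells, while Tsga8 made up 0.712% and 14.2%. Sertoli cells are the somatic cells that enclose the germ cells. The source of this RNA was not tested.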
